A study of Mus musculus with 139 samples.

Results

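The measurements described here are the positions of RNAs in sucrose gradients of nuclear lysate from mouse embryonic stem cells, after 12 h of indole-3-acetic acid (IAA) and without it. IAA is an auxin, and in the line AID-FBEXOSC2 it sends the degron-tagged exosome subunit EXOSC2 to the proteasome. For each gene a mean fraction number was taken over fractions F2 to F9, weighted by the FPKM (fragments scaled by transcript length and library size) in each fraction, and the shift is the value at 12 h minus the value at 0 h. A positive shift means a mean position in heavier fractions at 12 h. Genes entered with a summed FPKM of at least 8 over the 8 fractions at both times, which 11710 of 52885 genes reached. A further 961 genes reached this sum at 12 h only and 700 at 0 h only.

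The treated cells received 0.5 mM IAA for 12 h, and the cells of the 0 h gradient were of the same line and received none. Native nuclear lysates were spun through 6 to 40% sucrose, an equal amount of 4 ERCC spike-in transcripts was added per fraction, and total RNA was depleted of ribosomal RNA. Each fraction had 1 library per time, 16 in all of the 139 samples of the series, so differences in the gradient have no replicate check and no p-value. Cells without the degron that received IAA were not used here, so loss of EXOSC2 and exposure to IAA cannot be told apart. With 1 gradient per time, the treatment and the making of the gradient cannot be told apart either. Replicated values came from 2 other experiments on the same line with 2 libraries per time, which may be technical replicates. They are polyadenylated RNA of RNPmesh, a nuclear residue that withstood DNase I digestion and extraction with urea, detergent and salt (12 h and 0 h), and rRNA-depleted whole-cell RNA (4 h, 20 h and 0 h).

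The RNA exosome is a barrel of subunits with associated 3′ to 5′ nucleases. In the nucleus it trims precursors of small nucleolar, small nuclear and ribosomal RNAs and destroys short-lived noncoding transcripts. In a sucrose gradient, particles sediment by mass and shape, so an RNA that carries more protein or is held in a larger assembly lies in heavier fractions. Fraction number is therefore taken as a reading of the particle that an RNA is part of, rather than of how much RNA there is. Since FPKM is scaled within each library, the mean fraction also depends on how the libraries are scaled.

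All 7 embryonic stem cell markers were among the genes measured, with sums of at least 347.1 FPKM at 12 h and 381.6 FPKM at 0 h. The 10 fibroblast markers summed together to 29.4 FPKM at 12 h and 50.6 FPKM at 0 h, the 6 trophoblast markers to 7.1 and 8.7, and the 6 endoderm markers to 17.5 and 16.3. Mitochondrially encoded transcripts reached 33674 FPKM at 12 h and 28322 FPKM at 0 h (mt-Rnr2), so the nuclear lysates also held RNA of mitochondria. Read numbers of the libraries were not stated. Total FPKM fell along the gradient, from 764218 in F2 to 139617 in F9 at 12 h and from 753233 to 131766 at 0 h. Rpph1, the RNA of RNase P, was the most abundant transcript in F2 to F5 at both times, with 29.2% of F2 at 12 h and 24.3% at 0 h. Exosc2 mRNA does not measure the depletion, which acts on the protein. Its FPKM over F2 to F9 was 0.446, 1.35, 1.55, 2.09, 2.60, 1.54, 2.75 and 2.88 at 12 h, against 1.37, 1.73, 2.93, 2.88, 2.62, 3.11, 4.63 and 3.47 at 0 h. Exosc2 was thus lower at 12 h in each of the 8 fractions, and its shift was 0.16 (chr2:31670715-31681349, mm10). In RNPmesh it averaged 2.23 ± 0.0542 FPKM at 12 h and 9.58 ± 1.60 at 0 h (SD, n = 2 each), a log2 change of -1.70 (SE 0.20; limma, adjusted p = 0.000378).

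Most RNAs lay about 0.4 of a fraction heavier at 12 h. The median shift was 0.44, with quartiles of 0.30 and 0.56, and the median gene had a mean fraction of 5.36 at 12 h and 4.94 at 0 h. The mean fraction was higher at 12 h for 11090 genes and lower for 620 (5.29%). A shift of at least 0.5 was seen for 37.0% of genes, of at least 1 for 163 (1.39%), and of -1 or below for 62 (0.529%). The width of the profiles hardly differed, with a median SD of 1.91 fractions at both times. Among genes peaking in F6, the count was 3339 at 12 h and 1242 at 0 h, while 912 peaked in F3 at 12 h and 2226 at 0 h. The median gene had 16.1% of its summed FPKM in F6 at 12 h and 13.0% at 0 h, and 7.6% in F2 at 12 h and 11.1% at 0 h. The 20 coding genes just inside the minimum sum, at 8.01 to 8.08 FPKM, had a median shift of 0.48, and the 20 just outside, at 7.88 to 7.998 FPKM, one of 0.48.

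The size of this common shift depended on how the libraries were scaled. It was 0.415 with equal library totals, 0.20 with equal totals after setting aside Rpph1, Rn7sk, Rmrp and Gm26917, and 0.07 when each library was divided by its median ratio to the mean of all 16. The last setting makes the typical gene equal in all libraries by its construction, and under it 60.5% of genes had a higher mean fraction at 12 h and 39.5% a lower one, against 94.7% and 5.29% as deposited. Values below are therefore also read against the median of all genes.

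Most of the libraries themselves were offset, by margins that differed. Over the 11710 genes, the 12 h libraries of F3 to F8 each correlated best with the 0 h library of the next lighter fraction. For F5 at 12 h, Pearson's r was 0.943 with F4 at 0 h, 0.905 with F5 and 0.820 with F6. Margins were smaller for F3 at 12 h (0.945 with F2 at 0 h and 0.942 with F3) and F7 (0.907 with F6 and 0.899 with F7). F2 and F9 at 12 h matched their own numbers best, with r of 0.928 and 0.907. For F9 at 12 h, r with the lighter F8 at 0 h was 0.895. For F2 there was no lighter library at 0 h to match, so it cannot show such an offset. These correlations run across genes, which are not independent replicates, and all libraries share the abundant RNAs. An offset in where fractions were collected cannot be told apart from a change of the particles, since both would move all RNAs.

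**Figure D1:**
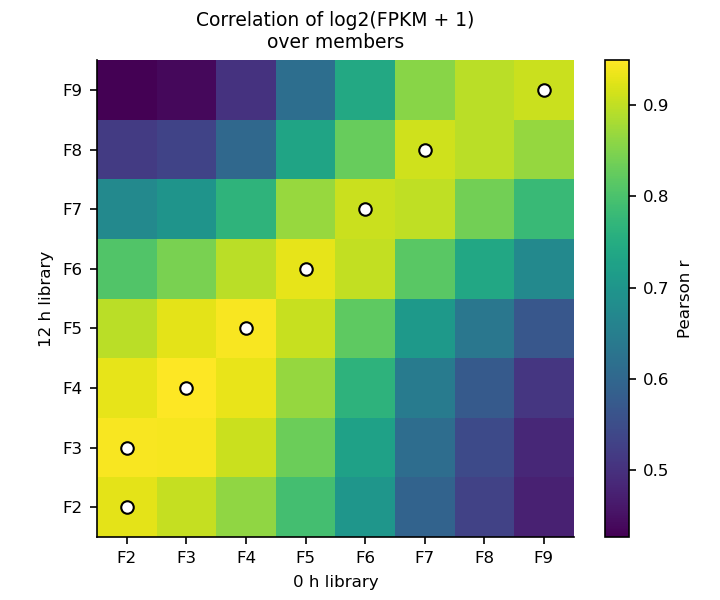
Pearson correlation of log2(FPKM + 1) over 11710 genes between each 12 h library (rows, F2 at the bottom) and each 0 h library (columns); white points mark the best match of each 12 h library. The points for F3 to F8 lie in the column of the next lighter 0 h fraction.

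Classes of RNA did not share the shift equally. Protein-coding genes (9679) had a median of 0.44, with 38 at 1 or more and 3 at -1 or less, and processed pseudogenes (1005), intronless copies of mRNAs whose reads may come from the parent gene, one of 0.54. Long intergenic noncoding RNAs (132) had 0.33, antisense RNAs (75) 0.30 and processed noncoding transcripts (74) 0.24. Small nuclear RNAs (47) had a median of -0.16, and 25 of them had a lower mean fraction at 12 h, against 5.29% of all genes. Their median was 0.26 in even and -0.20 in odd fractions. Short classes also spread most, with quartiles of -0.26 and 0.77 for 220 small nucleolar RNAs. The 144 small nucleolar RNAs with sums of at least 80 FPKM still had quartiles of -0.02 and 0.73. The part of level in the spread of short classes was not tested. Over all genes, spread differed by level. From the lowest band, sums of 8 to 20 FPKM, to the highest, above 200 FPKM, the interquartile range of the shift went from 0.37 to 0.19, and the typical gap between even-numbered and odd-numbered fractions from 0.26 to 0.10. For this reason single genes are named mainly from the 3428 genes with sums of at least 80 FPKM at both times, whose median shift was 0.48.

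**Figure D2:**
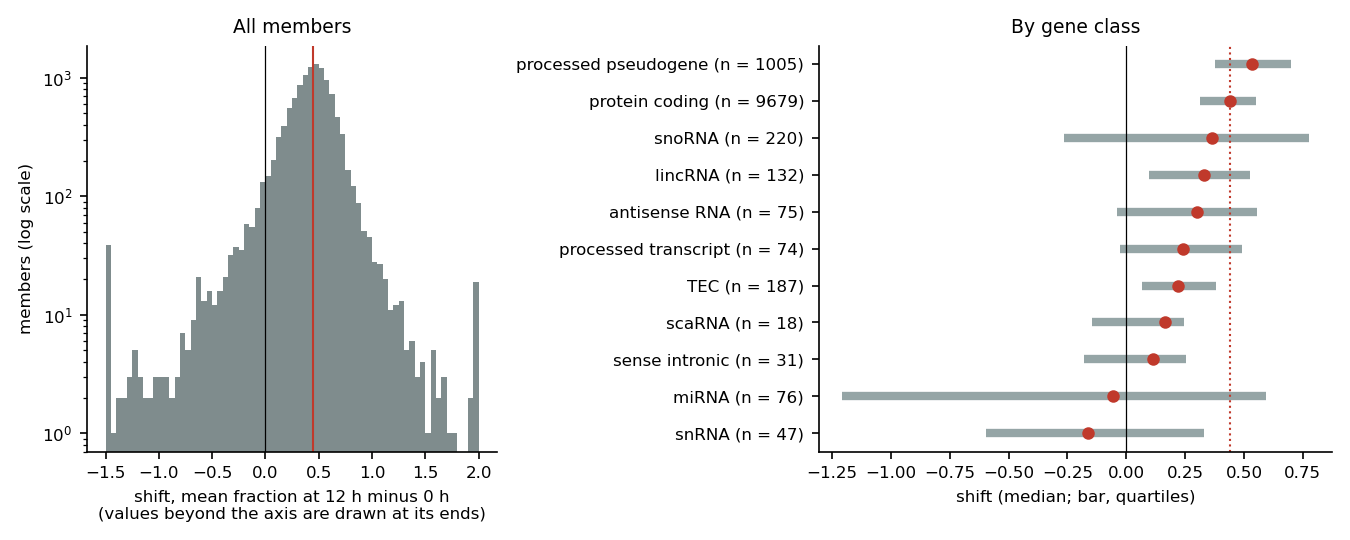
Left, number of genes (log scale) by shift in mean fraction number, 12 h minus 0 h, with the median of 0.44 as a red line and values beyond the axis drawn in its end bars. Right, median (points) and quartiles (bars) of the shift by annotated class, where the 9679 coding genes sit at 0.44 and the 47 small nuclear RNAs at -0.16.

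Even and odd fractions share no library and gave a reading of the same genes each, but both come from the same 2 gradients. Agreement between them is therefore no replicate check. The median shift was 0.49 in even and 0.38 in odd fractions, and 10676 genes had the same sign in both. Among the 2829 coding genes with sums of at least 80 FPKM, the 141 with the highest shift in even fractions had a median of 0.54 in odd fractions, against 0.41 for all 2829. The 141 with the lowest shift in even fractions had a median of 0.15 in odd fractions, and 16 of them lay above the median of all. Chosen in odd and read in even fractions, the medians were 0.68 and 0.26, against 0.53 for all. Across these genes the 2 readings had an r of 0.556, a description over genes of the same 2 gradients.

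At sums of at least 80 FPKM, 19 genes had a shift of 1 or more, of which 13 were small nucleolar RNAs and 3 were coding genes. Among mRNAs, Rbm3, which encodes a cold-induced RNA-binding protein (chrX:8138978-8145880), had 6.64, 8.46, 7.58, 9.67, 13.03, 13.2, 24.7 and 18.6 FPKM over F2 to F9 at 12 h, against 8.89, 10.3, 11.6, 10.7, 8.03, 7.65, 6.08 and 4.99 at 0 h. It was lower at 12 h in F2 to F5 and higher in F6 to F9, the peak lay in F8 at 12 h and in F4 at 0 h, and the shift was 1.37. The pseudogene Rbm3-ps, with which reads may be shared, had a shift of 0.99 from peaks in F4 at both times. Cirbp, the other cold-induced RNA-binding protein gene, had 12.9, 12.3, 18.2, 14.8, 13.1, 9.70, 7.78 and 6.25 FPKM at 12 h and 18.9, 19.3, 26.5, 17.2, 14.6, 14.7, 11.1 and 8.17 at 0 h, and a shift of 0.08. It was lower at 12 h in all 8 fractions, and its shift lay below the median of all genes in each of the 16 settings.

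Tfpi encodes an inhibitor of the tissue factor pathway of clotting (chr2:84432855-84476775). Its values were 16.2, 17.9, 23.5, 28.5, 29.2, 22.4, 20.1 and 19.4 FPKM at 12 h, against 25.1, 31.4, 37.4, 29.5, 20.8, 8.84, 6.43 and 7.46 at 0 h, a shift of 1.11 with hardly any change of the sum (log2 0.09). The crossing lay between F5 and F6, with all light fractions lower and all heavy ones higher at 12 h. Fubp1 encodes a single-stranded DNA-binding regulator of Myc (chr3:152210422-152236826). It had 9.96, 19.6, 29.1, 34.6, 42.04, 37.3, 50.3 and 66.6 FPKM at 12 h, against 25.9, 41.6, 55.5, 60.1, 50.8, 36.7, 31.99 and 39.01 at 0 h, a shift of 1.04. Its highest value lay in F9 at 12 h and in F5 at 0 h. Arpp19, an inhibitor of the phosphatase PP2A in mitosis, shifted by 1.02. Rbm3 itself had a sum of 102 FPKM at 12 h and 68.1 at 0 h and so lay under the level of 80. With clone names and small RNA classes set aside, the rest of the 10 largest shifts above that level were Dcxr (1.00), Ooep (0.98), Yif1a (0.97), Ppp1r11 (0.97), Zfp207 (0.90) and Mrps23 (0.87), beside Rbm3-ps, Tfpi, Fubp1 and Arpp19. These genes were chosen on all fractions together, so large shifts in both even and odd fractions are no separate check. Their shifts in even and odd fractions were, for example, 1.00 and 1.18 for Tfpi and 0.94 and 1.09 for Fubp1. Much of this signal came from the heaviest libraries: with F8 and F9 left out together, a choice made after seeing the data, the shift was 0.54 for Rbm3, 0.65 for Tfpi and 0.45 for Fubp1, against a median of 0.35 for all genes.

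Dcxr differed from these in level. This gene for a carbonyl reductase had 38.8, 62.95, 67.5, 49.00, 40.6, 31.4, 23.6 and 14.2 FPKM at 12 h, against 18.9, 27.5, 18.1, 12.6, 5.61, 3.33, 1.36 and 0.952 at 0 h. It was higher at 12 h in all 8 fractions, and its peak lay in F4 at 12 h and in F3 at 0 h. The log2 ratio of the sums was 1.89. In RNPmesh it rose as well, to 52.5 ± 2.25 FPKM at 12 h, against 7.80 ± 2.15 at 0 h (SD, n = 2 each; log2 change 2.62, limma, adjusted p = 0.000127).

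Coding genes with a lower mean fraction at 12 h were few, a count that depends on the common shift. At sums of at least 80 FPKM, the 141 least shifted coding genes had a median of -0.31 relative to all genes. That of the 141 most shifted was 0.27. Only 25 of the 2829 coding genes with sums of at least 80 FPKM had a lower mean fraction at 12 h, against 3.03% of all 3428 genes at this level. Wsb1, a ubiquitin ligase adaptor gene with a retained intron (chr11:79239372-79254671), had 20.3, 18.97, 21.9, 25.2, 27.1, 24.8, 32.5 and 26.99 FPKM at 12 h, against 11.02, 13.4, 16.8, 21.4, 20.4, 32.7, 38.2 and 23.9 at 0 h. It was higher at 12 h in F2 to F6 and lower in F7 and F8, with a shift of -0.42, which was -0.13 with equal library totals. Nxf1, the main mRNA export receptor gene (chr19:8757073-8772475), had 42.4, 47.2, 53.01, 42.5, 28.7, 15.2, 13.8 and 17.4 FPKM at 12 h, against 39.6, 50.01, 33.7, 30.7, 18.9, 20.1, 22.7 and 22.97 at 0 h. Its values were lower at 12 h in F7 to F9 and its shift of -0.26 became 0.06 without F8 and F9. Kansl3, a subunit of a histone acetyltransferase complex, had a shift of -0.28, Rbm5, a splicing regulator of apoptosis genes, one of -0.17, and Cyb5r1, a reductase gene, one of -0.16. Without F8 and F9 the shift of Cyb5r1 was 0.02, that of Rbm5 -0.07 and that of Wsb1 -0.39. Relative to the median of all genes, Wsb1, Nxf1 and Kansl3 stayed below it under each of the 15 other scalings and choices of fractions.

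**Figure D3:**
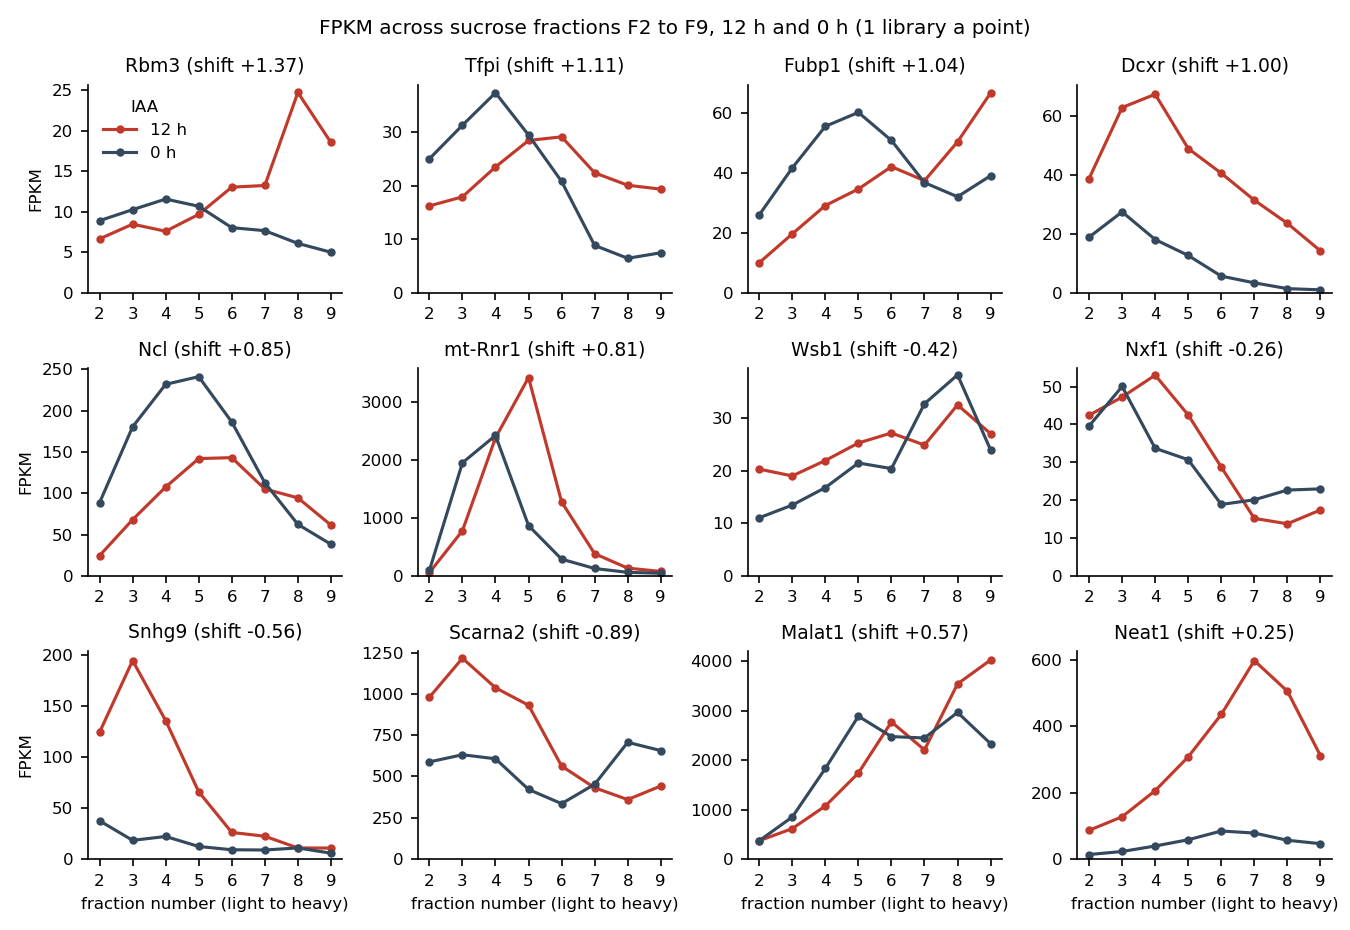
FPKM (y axis, from 0) in sucrose fractions F2 to F9 (x axis) at 12 h (red) and 0 h (dark blue) for 12 RNAs, 1 library a point, with the shift above each panel. Rbm3, Tfpi and Fubp1 gain in heavy and lose in light fractions, Wsb1, Nxf1, Snhg9 and Scarna2 gain in light ones, and Neat1 is higher throughout.

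Some RNAs nearly kept their mean position while their profile changed in shape. Genes with sums of at least 80 FPKM and a shift within 0.25 of 0 were ranked by this change. Clone names and small RNA classes were set aside. Hist1h2bl had the largest change, with 34.9% of its summed FPKM lying in other fractions at 12 h. It had 397, 42.7, 31.6, 188, 47.5, 11.4, 3.16 and 2.89 FPKM at 12 h, against 157, 119.6, 94.3, 82.9, 22.7, 7.29, 10.7 and 4.82 at 0 h. The values at 12 h jump between neighbouring fractions, and this histone gene has near-identical copies between which reads may be split. The next were the pseudogene Trmt112-ps2 (17.5%), Snhg4 (17.3%), a small nucleolar RNA host, and Rpl34 (16.7%), a ribosomal protein gene. For all genes the median was 13.9%.

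Small nucleolar RNAs guide chemical marks on ribosomal RNA, and the 2 families differ in fold, partner proteins and mark. The box H/ACA family, which guides pseudouridylation, moved with the bulk of RNAs: 35 members had a median shift of 0.56, and 21 of the 33 with sums of at least 80 FPKM moved by 0.5 or more, against 43.4% of all genes at that level. Snora62 had 52.9, 128, 215, 337, 353, 242, 168 and 186 FPKM at 12 h, against 130.1, 178, 227, 199, 99.2, 141, 47.1 and 65.9 at 0 h, a shift of 1.04. It peaked in F6 at 12 h and in F4 at 0 h. Snora61 shifted by 1.13 and Snora33 by 1.01, or 0.62 and 0.15 without F8 and F9. Snora9 had the largest value of this family, 2.88, which rested on 1.96 FPKM in F2 at 12 h against 91.3 at 0 h, and was 0.56 in odd fractions.

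The box C/D family, which guides 2′-O-methylation, did not move with the bulk. Its 57 members had a median shift of -0.01, and 44 lay below the median of all genes. A lower mean fraction at 12 h was seen for 29, against 5.29% of all genes. Among the 36 with sums of at least 80 FPKM the median was 0.09, and 15 had a lower mean fraction at 12 h, against 3.03% of all genes at that level. Relative to all genes, the median of the C/D list lay between -0.66 and -0.24 under the 15 other scalings and choices of fractions, and that of the H/ACA list between -0.06 and 0.29. Summed levels of both families were higher at 12 h, with a median log2 ratio of the sums of 0.83 for C/D and 0.50 for H/ACA, against -0.16 for all genes. A sum of at least 2-fold was reached by 20 of 57 C/D and 6 of 35 H/ACA members, against 3.69% of all genes. Small nucleolar RNAs lie in introns of host genes, and reads of the host precursor were not separated from those of the mature RNA. C/D loci are also shorter, with a median of 85 bases against 133 for H/ACA at this level, and values of such short loci were noisy. Snord93 and Snord37 show it: Snord37 was listed above 0 in F2 only at 12 h (40.7 FPKM) and in F9 only at 0 h (8.11 FPKM), which gives it a shift of -7.00, the lowest of all genes. The shift of Snord93 was -2.15 in all fractions and 0.42 in odd ones.

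**Figure D4:**
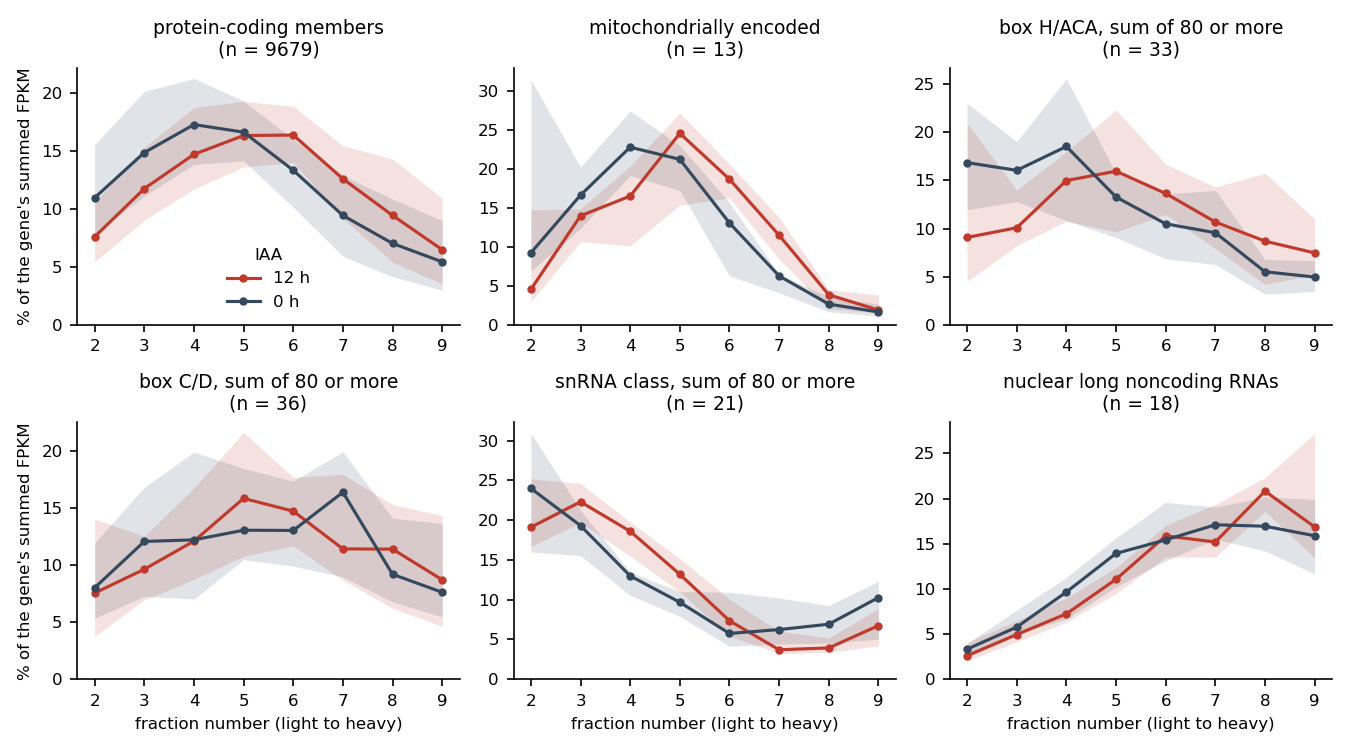
Median share of a gene's summed FPKM in each fraction (y axis, %; bands are quartiles over genes) at 12 h (red) and 0 h (dark blue) for 6 groups of RNAs. Coding, mitochondrial and box H/ACA RNAs lie to the right at 12 h, box C/D RNAs do not, and small nuclear RNAs lose share in F7 to F9.

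The hosts of small nucleolar RNAs also stayed back. Their 18 members had a median shift of 0.16, 7 had a lower mean fraction at 12 h, against 5.29% of all genes, and 13 lay below the median of all genes. The list stayed below the median of all genes by 0.16 to 0.39 under the 15 other settings. Snhg9 (chr17:24719531-24719965) had 124, 195, 136, 66.1, 26.1, 22.4, 10.9 and 10.8 FPKM at 12 h, against 37.6, 18.4, 22.2, 12.4, 9.15, 8.91, 10.95 and 5.80 at 0 h. It was higher at 12 h in all fractions but F8, with the largest difference in F3, and the shift was -0.56, or -0.12 without F8 and F9. The log2 ratio of its sums was 2.24, and in RNPmesh it was not tested. Snhg15 (shift -0.17, log2 ratio 1.26), Snhg3 (-0.12, 1.19) and Snhg20 (0.23, 2.05) were likewise higher in sum. Without F8 and F9 the shift of Snhg15 was 0.15. Snhg6 had a shift of 0.60 and a log2 ratio of -0.43. In RNPmesh, 9 of 16 hosts were lower at 12 h and 0 higher (limma, adjusted p under 0.05), against 31.6% lower and 16.3% higher of all 12725 genes tested.

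Small nuclear RNAs of the spliceosome form compact particles with Sm proteins. Of this class, 21 had sums of at least 80 FPKM. Their median share of summed FPKM in F7 was 3.7% at 12 h and 6.2% at 0 h. The share in F7 was lower at 12 h for all 21, while it was higher for 9248 of all 11710 genes. In F4 the median was 18.6% at 12 h and 13.0% at 0 h. The share in F4 was higher for 20 of 21, against 2939 of all 11710 genes. The light peak thus moved to the right like other RNAs while the heavy end lost share, and the median shift was -0.21. The sign of this median depended on the fractions read: it was 0.08 in even and -0.45 in odd fractions. Rnu11, the U11 RNA of the minor spliceosome (chr4:132270080-132270213), had 1241, 733, 509, 331, 287, 314, 202 and 291 FPKM at 12 h, against 476, 241, 257, 216, 208, 242, 139.7 and 203 at 0 h. It was higher in all fractions at 12 h, with the largest difference in F2, and its shift was -0.65. Rnu12, the U12 RNA, shifted by -0.41. Many loci of this class are near-identical copies, between which reads may be split.

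Small Cajal body RNAs guide marks on small nuclear RNAs, and 8 of the 9 lay below the median of all genes. Scarna2 (chr3:108554338-108554751) had 979, 1215, 1037, 931, 563, 431, 360.1 and 442 FPKM at 12 h, against 588, 631, 607, 421, 335, 453, 707 and 657 at 0 h. It was higher at 12 h in F2 to F6 and lower in F7 to F9, with a shift of -0.89, or -0.18 without F8 and F9. Scarna9 had the same form, with 131 FPKM in F9 at 12 h and 183 at 0 h, and a shift of -0.69. Scarna3b, with a sum of 27.8 FPKM at 12 h and 45.7 at 0 h, went the other way (1.39).

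Most RNAs made by RNA polymerase III and other structured RNAs lay in light fractions, and 10 of the 12 measured had a shift below the median of all genes. Rn7sk, the scaffold that holds the elongation factor P-TEFb inactive, had 129501 FPKM in F2 and 999 in F9 at 12 h, against 96049.9 and 1116 at 0 h, and a shift of 0.24. Rpph1 shifted by 0.15 and Terc, the telomerase RNA, by 0.10. Rmrp, the RNA of RNase MRP, had a second heavy peak. It had 48594, 35623, 22673, 14445, 10181, 14954, 20213 and 15574 FPKM at 12 h, against 29631, 20109.7, 15082, 15978, 23850.4, 20004, 12582 and 5907 at 0 h. The heavy peak lay in F8 at 12 h and in F6 at 0 h, while the light end in F2 was also higher, and the shift was -0.29, or 0.15 with equal library totals. Rn7s2 (0.87) and Rn7s1 (0.78), loci of the signal recognition particle RNA, had the largest shifts and peaked in F5 at 12 h and in F4 at 0 h. Their sums were under 80 FPKM, and in odd fractions their shifts were -0.33 and -0.40. The median of the 12 RNAs of this list was 0.26.

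Long noncoding RNAs kept in the nucleus sedimented far down the gradient at both times, and the 18 measured had a median shift of 0.26. Malat1, an abundant RNA of nuclear speckles, had 371, 616, 1072, 1739, 2771, 2206, 3539 and 4022 FPKM at 12 h, against 371, 850.0, 1831, 2886, 2475, 2446, 2963 and 2331 at 0 h. It was lower at 12 h in F3, F4, F5 and F7 and higher in F6, F8 and F9, a shift of 0.57 with nearly the same sum (log2 ratio 0.02). Against the median of all genes its sign held in 12 of 16 settings. Neat1, the scaffold of paraspeckles (chr19:5824708-5845478), had 86.6, 128, 206, 308, 436, 598, 506 and 312 FPKM at 12 h, against 13.7, 22.9, 39.4, 58.3, 84.5, 78.4, 56.7 and 46.4 at 0 h. Its level was higher in every fraction, with a log2 ratio of the sums of 2.69, while its shift of 0.25 stayed under the median of all genes in each of the 16 settings. Neat1 also rose in RNPmesh, to 14565 ± 4329 FPKM at 12 h, against 3768 ± 418 at 0 h (SD, n = 2 each; log2 change 1.92, limma, adjusted p = 0.00261, and 0.585 when no genes were filtered out). In whole-cell RNA its log2 change was 1.36 at 4 h and 2.46 at 20 h (limma, adjusted p = 0.00633 and 7.71e-05). Kcnq1ot1, an imprinted antisense RNA, shifted by 0.23 with a log2 ratio of 0.70. Lncenc1, a noncoding RNA of naive stem cells, had the largest shift of this list (0.67, and 0.22 without F8 and F9). Gm26917 is annotated as a long intergenic noncoding RNA (chr17:39843013-39846341), and the origin of its reads was not tested. It was listed at 0 in F8 and F9 at 12 h, against 29699 and 22687 FPKM at 0 h. Its shift of -1.30 rests on these 2 libraries and was -0.05 without F8 and F9.

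**Figure D5:**
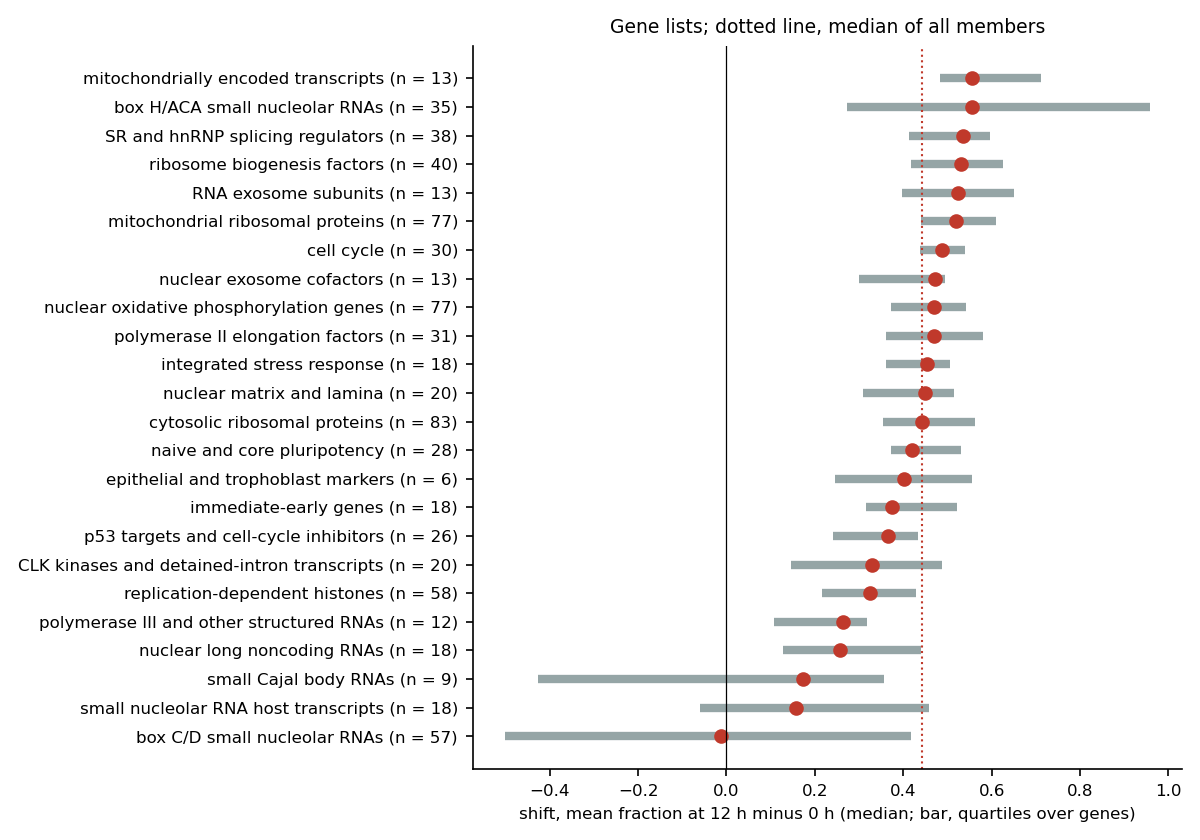
Median shift (points) and quartiles over genes (bars) for 24 gene lists of at least 5 genes, 12 h minus 0 h, with the median of all 11710 genes (0.44) as a dotted line. Box C/D RNAs (-0.01) and small nucleolar RNA hosts (0.16) lie left of the line, and mitochondrially encoded transcripts and box H/ACA RNAs (both 0.56) right of it.

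Coding lists lay close to the bulk. Median shifts were 0.54 for 38 SR and hnRNP splicing regulators, 0.53 for 40 ribosome biogenesis factors, 0.52 for 77 mitochondrial ribosomal proteins, 0.49 for 30 cell cycle genes, 0.47 for 77 nuclear oxidative phosphorylation genes, 0.44 for 83 cytosolic ribosomal proteins and 0.42 for 28 pluripotency genes. Ncl, the gene of the nucleolar protein nucleolin (chr1:86344719-86359400), had 24.5, 68.1, 108, 142, 143, 105, 94.5 and 61.5 FPKM at 12 h, against 88.6, 180.5, 232, 241, 186, 113, 62.4 and 38.3 at 0 h. It was lower in F2 to F7 and higher in F8 and F9, with a shift of 0.85. Pnn, the gene of a splicing-associated protein of speckles, shifted by 0.87, or 0.26 without F8 and F9, and Hnrnpa1, a splicing repressor gene, by 0.80. Nanog, a pluripotency factor gene, shifted by 0.53 and Pou5f1, its partner, by 0.57.

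The transcripts of the exosome itself were in this bulk. Their 13 members had a median shift of 0.52, 7 of them at 0.5 or more, against 37.0% of all genes, and 0 below 0, against 5.29%. Dis3, the gene of the catalytic subunit, moved most: it had 3.73, 8.19, 11.8, 13.8, 16.4, 13.6, 13.8 and 11.98 FPKM at 12 h, against 13.8, 17.99, 20.9, 22.1, 19.1, 13.6, 11.6 and 9.52 at 0 h, a shift of 0.84. It was lower at 12 h in F2 to F6 and higher in F8 and F9. Its RNPmesh level was 26.4 ± 1.37 FPKM at 12 h and 16.2 ± 1.19 at 0 h (SD, n = 2 each; log2 change 0.67, limma, adjusted p = 0.0215, lost in 3 of 8 alternative fits). The 13 cofactors had a median of 0.47, with the largest values for Ncbp1 (0.67) and Ncbp2 (0.60), the genes of the cap-binding pair.

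Transcripts of CLK kinases and genes with detained introns were split. Their 20 members had a median of 0.33 and 14 lay below the median of all genes. At one end stood Wsb1, Ccnl1, a cyclin of splicing speckles (-0.15, and 0.06 with equal library totals), and Cirbp. At the other end stood Rbm3 and Mat2a, the methionine adenosyltransferase gene, with 79.1, 85.4, 74.7, 85.6, 108, 114, 145 and 102 FPKM at 12 h against 94.7, 78.3, 77.3, 88.8, 76.7, 73.6, 60.01 and 43.1 at 0 h. Mat2a peaked in F8 at 12 h and in F2 at 0 h, and its shift was 0.78. Rbm3 and Mat2a also rose in RNPmesh, by log2 changes of 1.26 and 1.504 (limma, adjusted p = 0.00254 and 0.00124).

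Mitochondrially encoded transcripts are made and kept in mitochondria, outside the nucleus. All 13 measured had a higher mean fraction at 12 h, against 94.7% of all genes, and their median shift was 0.56. The ribosomal RNA mt-Rnr1 had 56.2, 777, 2376, 3414, 1272, 381, 133 and 76.5 FPKM at 12 h, against 93.4, 1946, 2416, 865, 288, 127, 60.5 and 45.00 at 0 h. Its peak lay in F5 at 12 h and in F4 at 0 h, a shift of 0.81. The mRNA mt-Co1 peaked in F6 at 12 h and in F5 at 0 h, and shifted by 0.48. The level of mitochondrial RNA also differed between the gradients, at 113046 FPKM in all at 12 h and 93094 at 0 h, and its part in other shifts was not tested.

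Replication-dependent histone mRNAs, short and without a poly(A) tail, lay lightest among coding lists. The median share in F2 was 34.7% at 12 h and 44.5% at 0 h, and the 58 members had a median shift of 0.32. For 56 of the 58 the share in F5 was higher at 12 h, against 5396 of all 11710 genes. For 9 of the 58 the share in F9 was higher, against 8623 of all 11710 genes. By the mean fraction of a coding gene at 0 h, the median shift was 0.35 between 2 and 3, 0.49 between 3 and 4, 0.51 between 4 and 4.5, 0.42 between 5 and 5.5, and 0.27 between 6 and 7. The r between this position and the shift was -0.126 at sums of at least 80 FPKM, and since the shift subtracts the position at 0 h, a negative r is in part built in. Genes with long annotated spans started heavier, with an r of 0.625 between log2 span and mean fraction at 0 h over the 2829 coding genes, but span and shift had an r of 0.05.

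Levels in the gradient also differed. Summed FPKM was at least 2-fold higher at 12 h for 432 genes, 328 of them in all 8 fractions, and at least 2-fold lower for 218 genes (1.86%), 147 of them in all 8. The 432 had a median shift of 0.32, and 101 of them (23.4%) had a lower mean fraction at 12 h, against 4.58% of genes within 2-fold. The targets of p53, the transcription factor of the DNA damage response, stood out by count: 11 of 26 were at least 2-fold higher, against 3.69% of all genes, and 0 lower. Mdm2, the ubiquitin ligase that restrains p53, had 22.8, 40.7, 62.4, 79.9, 94.97, 79.4, 61.1 and 45.2 FPKM at 12 h, against 8.46, 16.3, 21.7, 29.6, 25.02, 18.6, 16.1 and 14.00 at 0 h. It was higher in each fraction and peaked in F6 at 12 h and in F5 at 0 h, with a shift of 0.25. Ccng1, a cyclin gene induced by p53, had the largest shift of this list (0.59) and a log2 ratio of 1.44, and Ppm1d, a phosphatase gene, had 0.57 and 0.85. The median shift of the list was 0.36, and 20 of 26 lay below the median of all genes.

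The replicated experiments measured level only. In RNPmesh, 19 of 26 p53 targets were higher at 12 h and 3 lower, against 16.3% and 31.6% of all genes (limma, Benjamini-Hochberg adjusted p under 0.05). Mdm2 had 122 ± 9.11 FPKM at 12 h and 20.4 ± 2.44 at 0 h (SD, n = 2 each; log2 change 2.53, limma, adjusted p = 0.000117). Plk2, a polo-like kinase gene and p53 target, had 50.3 ± 0.0195 at 12 h and 3.17 ± 0.290 at 0 h (log2 change 3.62, limma, adjusted p = 2.74e-05). In whole-cell RNA, 15 of 25 targets were higher and 1 lower at 4 h, against 4.47% and 21.2% of all 12461 genes, and 17 were higher and 5 lower at 20 h, against 9.47% and 67.8%. Over all genes measured in both, the log2 ratio of the sums had an r of 0.485 with the RNPmesh change at 12 h (10568 genes), 0.427 with the whole-cell change at 4 h and 0.620 with that at 20 h (10818 genes). These are descriptions across genes of the same cell line, measured in different libraries.

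Shift and replicated level were compared in the same way. Of the 141 coding genes with the largest shifts, 140 were tested in RNPmesh, and 23 were higher and 47 lower, shares of 16.4% and 33.6%. Of the 141 with the smallest, 133 were tested, and 22 were higher and 45 lower, shares of 16.5% and 33.8%. Both are near those of all genes. In whole-cell RNA the ends differed more: 17.1% of the most shifted and 28.4% of the least shifted genes were lower at 4 h, and 90.0% and 79.4% at 20 h, against 22.4% and 86.5% of all coding genes at this level (limma, adjusted p under 0.05). The order of the ends was opposite at 4 h and 20 h, and the difference between them was not tested. These calls also depended on scaling. Over all genes, 2639 were lower at 4 h and 8451 at 20 h, but 256 and 3466 with rescaled libraries. Over coding genes with sums of at least 80 FPKM, shift had an r of 0.0747 with the RNPmesh change, -0.0275 with the whole-cell change at 4 h and -0.0961 with that at 20 h. Single genes with large shifts did rise there, among them Fubp1, with 96.6 ± 10.2 FPKM at 12 h and 24.1 ± 3.86 at 0 h (SD, n = 2 each; log2 change 1.96, limma, adjusted p = 0.000296), and Zfp207, a spindle assembly gene (log2 change 0.97, limma, adjusted p = 0.00679). Others did not: Arpp19 had a log2 change of 0.47 (adjusted p = 0.142) and Ooep, an oocyte and early embryo gene, of -0.49 (adjusted p = 0.0972), both by limma. Among the genes that stayed back, Cyb5r1 fell by 1.4998 on the log2 scale (limma, adjusted p = 0.00121), and Wsb1 had a change of -0.31 (limma, adjusted p = 0.23).

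MicroRNA loci carried the widest spread, and its cause was not tested. Hairpins of the Mir290 cluster, the set most typical of embryonic stem cells, are given as examples. The libraries were not of small RNA, so a value at a hairpin counts fragments of the precursor transcript. Mature sequences of 4 loci of the cluster follow, from RefSeq on GRCm38.p6, with the seed (bases 2 to 8) in capitals. The first pair shares 1 seed and the second pair another.
mmu-miR-291a-3p (chr7:3218968-3218989, plus strand): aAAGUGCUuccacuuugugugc
mmu-miR-294-3p (chr7:3220691-3220712, plus strand): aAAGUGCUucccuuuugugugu
mmu-miR-293-5p (chr7:3220356-3220377, plus strand): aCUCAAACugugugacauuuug
mmu-miR-292a-5p (chr7:3219200-3219221, plus strand): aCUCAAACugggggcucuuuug
Mir291a had 13.3, 18.9 and 36.3 FPKM in F7, F8 and F9 at 12 h and was listed at 0 in F2 to F6. At 0 h it had 7.70, 14.3, 9.40, 6.59, 7.89, 0, 11.9 and 8.88 FPKM over F2 to F9. Its shift was 3.06, that of Mir294 4.66 and that of Mir292 1.60, while Mir293 had -0.34. Mir294 was above 0 in F7 and F9 only at 12 h (6.60 and 11.2 FPKM) and in F2, F3 and F7 only at 0 h (9.74, 5.24 and 5.47 FPKM). Of the 76 microRNA loci, 60 had a sum under 80 FPKM, and these were listed at 0 in a median of 8 of the 16 libraries. All 15 with a shift of 1 or more and 23 of the 24 with -1 or less were among these 60. The 16 loci with larger sums had a median shift of 0.27.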

How the data were processed

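Native nuclear lysates of AID-FBEXOSC2 mouse embryonic stem cells were fractionated on sucrose gradients, with 1 library per fraction and time. The authors deposited FPKM values per gene, and per the submitters' processing notes TopHat2 2.0.11, Cufflinks 2.0.2, bedtools and the build mm10 were among the tools and genomes used. The sources used here do not say whether a spike-in factor was applied, and 0 rows of the gradient table were named ERCC. The depth of the libraries is unknown, so no counting interval was given.

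Mean fraction numbers were computed from FPKM over F2 to F9 for genes with a sum of at least 8 at both times (Python 3.11.15, numpy 2.4.6, pandas 2.3.3). The profile change is the share of a gene's summed FPKM that lies in other fractions. A level of 80 FPKM and shifts of 1 and 0.5 were used for counts. Replicated tables were fitted with limma 3.58.1 (R 4.3.3) on log2(FPKM + 1), for genes of at least 1 FPKM in at least 2 libraries, with Benjamini-Hochberg adjustment over all genes tested and a threshold of 0.05. Fold changes on that scale understate those of low genes. Both scripts were tested on simulated data.

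The genes and the 27 gene lists were chosen with earlier results of these data known. Named genes were Exosc2, the 10 largest shifts each way and the 4 largest profile changes within 0.25 of no shift, both above 80 FPKM. Clone names and small RNA classes were passed over in both. The 2 largest shifts of each list were added. The list of spliceosomal small nuclear RNAs held Rnu73b, annotated as a small nucleolar RNA, and was not used as a list. Genes outside this rule, among them Cirbp, Malat1, Neat1, Mdm2, Plk2, Snora62, Rmrp and the Mir290 cluster, were chosen after their values were seen. Alternatives were other library scalings, a pseudocount, even or odd fractions, single fractions left out, another minimum and, chosen after seeing the data, F8 and F9 left out together and equal totals without 4 abundant RNAs.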

Additional observations from a re-analysis of the deposited data

How the results depend on the processing

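With 1 gradient per time, no setting below measures the spread between gradients, and the depth of the libraries is unknown. The median shift of 0.44 was 0.0704 with median-ratio scaling and 0.2004 with equal totals without 4 abundant RNAs. Genes at 1 fraction or more heavier numbered 163, against 95 with median-ratio scaling, 91 without the 4 RNAs, 93 without F8 and F9, 400 in even fractions, 19 at a minimum of 80 FPKM, 38 after subtracting the median and 4329 at a size of 0.5. Those at 1 or more lighter numbered 62, against 161 with median-ratio scaling, 97 without the 4 RNAs, 5 at 80 FPKM, 126 after subtracting the median and 144 at a size of 0.5. Leaving out 1 fraction at a time gave medians of 0.345 (without F2) to 0.492 (without F5), 82 (without F2) to 357 (without F4) heavier genes and 55 to 71 lighter ones. Snord93 had -2.15 in all fractions and 0.42 in odd ones. Named genes stayed on their side of the size of 1 in 1376 comparisons with another setting, fell below it in 69 and reached it in 69. Their sign was opposite in 57 of 1420 comparisons, for 27 of 95 genes, 12 of them with median-ratio scaling. List medians, relative to all genes, moved by at most 0.1 in 335 comparisons and by more in 55. The cause was not tested where construction does not give it.

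In limma, leaving out 1 library gave 1387 to 2108 higher and 3156 to 3737 lower genes in RNPmesh (2078 and 4024 in all), 150 to 462 and 30 to 4652 in whole cells at 4 h (557 and 2639), and 785 to 1049 and 7240 to 7732 at 20 h (1180 and 8451). With no filter, 105 were higher and 66 lower at 4 h. Rescaled libraries gave 256 lower at 4 h, and 3423 higher and 3466 lower at 20 h. The labels do not say whether replicate numbers pair the samples. Differences between the replicates of each time had correlations of -0.14 to 0.15 across genes, which cannot settle it. A replicate block gave 1975 higher and 3875 lower genes in RNPmesh, 418 and 752 at 4 h and 1159 and 8308 at 20 h.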
